A study of Mus musculus with 10 samples.

Results

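The genes described here are p53 itself (Trp53), its regulators and genes it is known to induce in mouse cells, leaving out the BCL2 family. The 34 genes were chosen by symbol, and 33 of them had a row in the table of counts per gene, of 29955 genes listed. Of these 33, 27 passed the filter on low counts in the comparisons of 3 classes and 28 in those of 5 groups. Pidd1 had no row under that symbol. The table holds a row Lrdd, an older symbol of Pidd1 in the RefSeq gene table, which is given beside the members and not counted among them.

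RNA was sequenced from 10 libraries of a murine Ph+ acute lymphoblastic leukaemia (ALL) line with BCR-ABL1 p185, a constitutively active fusion kinase made by the Philadelphia translocation. Dasatinib, which inhibits ABL and SRC family kinases, was given at multiples of its IC90, and cells that grew out at one dose were plated again at the next. The dasatinib libraries were 3 from dasatinib 16x and 3 from dasatinib 1x. They were set against 1 library of a line carried with the solvent DMSO to step 16x, 1 of a line carried with DMSO to step 1x, and 2 of the parental line, and these 4 are called drug-free. All groups share the BCR-ABL1 background, and all derive from 1 line grown in RPMI medium with serum and β-mercaptoethanol. Only the dasatinib titles say biological replicate, and nothing shows separate cultures for any pair, so the p-values measure the spread between these libraries, which may be technical. That spread was uneven. The chi-square distance per gene was 1.88 between parental A and B, and 3.07 to 16.4 between dasatinib libraries of the same step. The tests draw on both. The question the design addresses is how lines that outgrew dasatinib differ from lines never exposed to it.

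p53 is a transcription factor that is kept low by the ubiquitin ligase MDM2 and rises when ATM, ATR and the CHK kinases report DNA damage, or when the ARF product of Cdkn2a blocks MDM2. It binds a pair of half-sites in DNA and switches on genes that halt the cell cycle, repair DNA, limit growth or start cell death, and also genes that shut it off again, such as Mdm2 and Ppm1d. In Ph+ B cell leukaemia the ARF and p53 axis is a known barrier to transformation by BCR-ABL1.

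Total counts were 29049760 to 45813092 per library, so 1 count was worth 0.0220 to 0.0341 CPM, the usual unit of counts scaled to a common library total. Levels are CPM on library sizes adjusted by TMM and are compared between libraries, not between genes of different length. The B lineage markers summed to 2433 to 2510 CPM in dasatinib 16x, 2554 to 2693 CPM in dasatinib 1x, 3084 CPM in DMSO 16x, 2914 CPM in DMSO 1x and 2694 to 2710 CPM in parental libraries. Of the 7, 4 were called lower in dasatinib 16x than in the drug-free libraries, and Ebf1 was nearly absent throughout, at 0.0955 to 0.717 CPM. All 5 T cell markers together reached at most 0.0633 CPM, all 4 stroma markers at most 0.0682 CPM and the 6 myeloid markers 3.63 to 8.24 CPM, nearly all from Lyz2. The 3 erythroid markers present reached 16.6 to 26.9 CPM in dasatinib 16x, 4.06 to 5.01 CPM in dasatinib 1x, 35.3 CPM in DMSO 16x, 11.7 CPM in DMSO 1x and 4.88 to 5.11 CPM in parental libraries. The erythroid sum was thus highest in the 4 libraries of step 16x, which also held almost no Phlda3, and its part in any result was not tested. The single DMSO 16x library stood apart from the other drug-free ones, and results that turn on it are given with that library's value.

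Of the 33 members, 5 had no more than 6 counts in any library and were not tested. They were Trp73, a p53 relative, Perp, a membrane protein of p53-dependent cell death, Polk, a translesion DNA polymerase, Ddit4l, an inhibitor of mTOR signalling, and Gdf15, a secreted stress factor. A count of 3 would be 0.0659 to 0.102 CPM per library, so differences in these genes were not detectable at this depth. Fas, the death receptor, had 3 to 11 counts per library and was tested only among 5 groups, where no comparison called it.

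The members together summed to 1254, 1327 and 1406 CPM in dasatinib 16x A, B and C, and to 1389, 1389 and 1365 CPM in dasatinib 1x A, B and C. The sums were 1054 CPM in DMSO 16x, 1159 CPM in DMSO 1x, and 1213 and 1208 CPM in parental A and B. All 6 dasatinib libraries lay above all 4 drug-free ones, and DMSO 16x was the lowest. Such a sum is weighted to abundant members, above all Ccng1 at 165 to 307 CPM. Of the 27 members tested among 3 classes, 14 had a log2 change above 0 in dasatinib 16x against drug-free libraries. The members did not move as one: against the drug-free libraries some rose and others fell, as the map of changes from the parental mean shows.

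**Figure D1:**
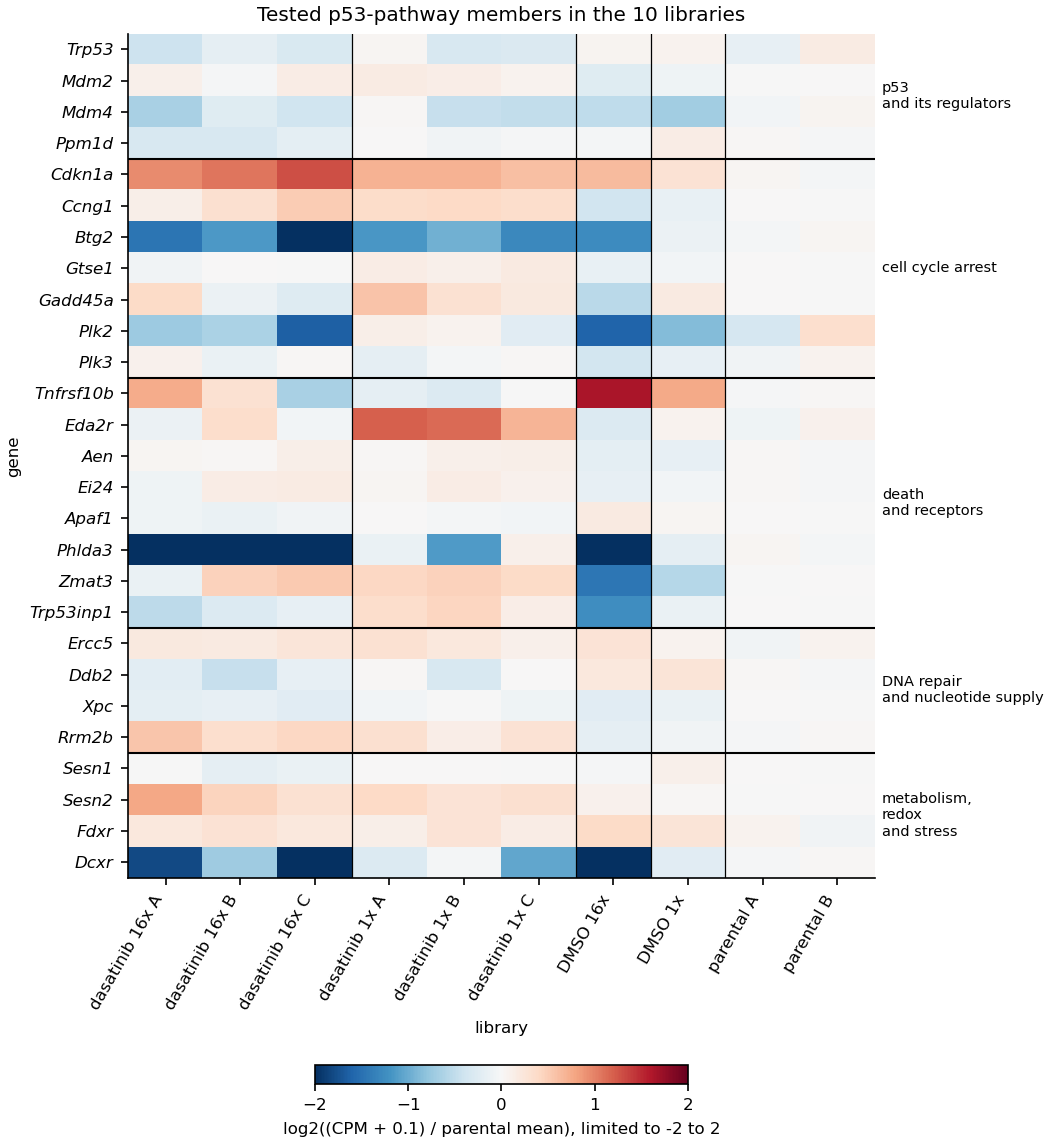
Colour gives, for the 27 members tested among 3 classes (rows, grouped by role) in each of the 10 libraries (columns), the log2 of CPM plus 0.1 minus the parental mean, limited to -2 to 2. Cdkn1a is red in all 6 dasatinib libraries and in DMSO 16x, Btg2 is blue in the same 7, and Phlda3 is at the blue limit in the 4 libraries of step 16x.

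In dasatinib 16x against drug-free libraries, 4 of the 27 tested members rose and 3 fell, beside 16.1% of all 12282 genes called in either direction (7.79% higher and 8.33% lower). The members that rose were Cdkn1a, Rrm2b, Sesn2 and Ccng1, and those that fell were Ppm1d, Btg2 and Phlda3. The other 20 did not pass the test. The median log2 change of the 27 was 0.02, against -0.00 over all genes tested. Without dasatinib 16x C 1 member was called lower, and without DMSO 16x there were 6. Over all genes these settings called 1005 and 2765 in either direction, beside 1980 with all libraries. In whole-culture RNA, fewer cells expressing a gene and less RNA per cell cannot be told apart.

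In dasatinib 1x against drug-free libraries, edgeR's quasi-likelihood test called 0 of the 27 members, beside 1.96% of all genes called in either direction (0.822% higher and 1.14% lower). At an unadjusted p under 0.05 there were 10 members, among 2432 of the 12282 genes, and DESeq2 called 3 members, all higher, among 853 genes. The members' median log2 change was 0.15, against -0.01 over all genes tested. Without DMSO 16x 4 members were called higher and 1 lower, without dasatinib 16x A 3 higher, and without dasatinib 16x C or parental B 1 higher. Over all genes the totals in that order were 516, 234, 176 and 241, beside 241 with all libraries. The comparisons of dasatinib 16x and dasatinib 1x share the drug-free libraries, so they are not independent of each other.

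**Figure D2:**
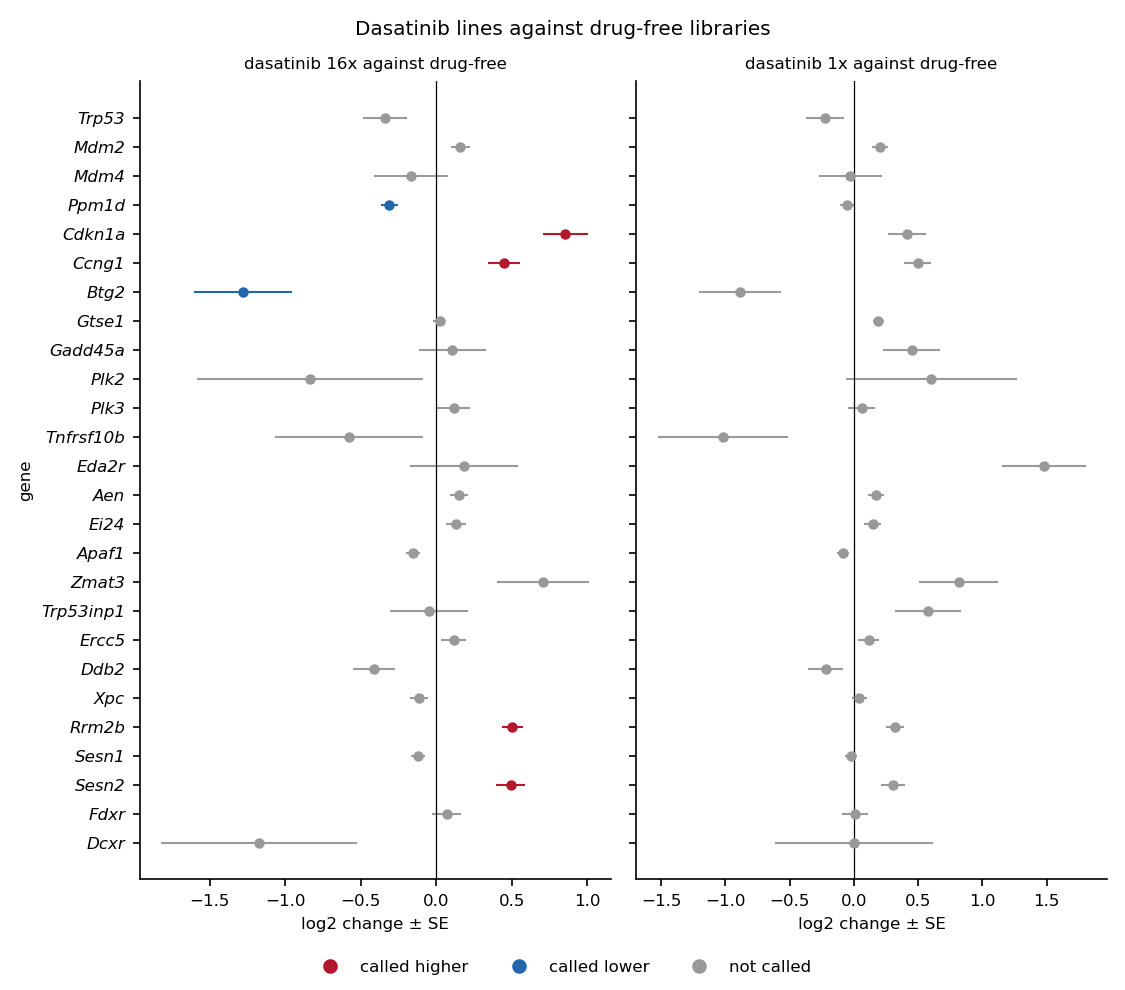
Log2 change (x axis) with its standard error for 26 tested members (y axis, Phlda3 left out for its size) in dasatinib 16x against drug-free libraries (left) and dasatinib 1x against drug-free libraries (right). On the left Cdkn1a, Ccng1, Rrm2b and Sesn2 are called higher and Ppm1d and Btg2 lower, and on the right all points are grey, since none was called.

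RefSeq promoter windows (build GRCm38.p6, 250 bases before to 50 after a gene's start, while the counts were made against mm9) were found for 27 of the 34 genes, in 35 windows. The p53 consensus half-site, a motif of 10 bases that reads the same on both strands, was present in 13 of these windows (37.1%), against 8.36% of all 32851 windows. The Aen half-site lies in both of that gene's windows, which overlap, and is counted in each. By gene, 12 of the 27 had a half-site. This is a description of genes chosen as p53-induced. Of the 15 members called in at least 1 comparison of dasatinib with drug-free libraries or between dasatinib steps, 11 had a window, and 6 of these 11 had a half-site in it. A match is not a measured binding site, and windows without one say nothing of sites elsewhere in a gene. The windows of Cdkn1a, Ppm1d, Ccng1 and Aen are printed because, of those 6 members, these have the smallest p-values in dasatinib 16x against drug-free libraries, with the half-sites in capitals.
Cdkn1a: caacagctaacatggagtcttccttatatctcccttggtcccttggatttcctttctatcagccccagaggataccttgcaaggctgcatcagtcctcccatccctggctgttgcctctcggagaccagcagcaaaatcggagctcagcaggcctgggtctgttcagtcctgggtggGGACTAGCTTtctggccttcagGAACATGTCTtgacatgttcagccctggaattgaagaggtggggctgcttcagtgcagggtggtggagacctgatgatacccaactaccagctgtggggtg
Ppm1d: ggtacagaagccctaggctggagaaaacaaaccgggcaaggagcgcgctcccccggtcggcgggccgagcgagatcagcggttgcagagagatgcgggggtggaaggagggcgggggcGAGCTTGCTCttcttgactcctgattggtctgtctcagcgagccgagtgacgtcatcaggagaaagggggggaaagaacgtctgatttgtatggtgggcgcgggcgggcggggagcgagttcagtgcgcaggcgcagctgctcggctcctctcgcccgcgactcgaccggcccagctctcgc
Ccng1: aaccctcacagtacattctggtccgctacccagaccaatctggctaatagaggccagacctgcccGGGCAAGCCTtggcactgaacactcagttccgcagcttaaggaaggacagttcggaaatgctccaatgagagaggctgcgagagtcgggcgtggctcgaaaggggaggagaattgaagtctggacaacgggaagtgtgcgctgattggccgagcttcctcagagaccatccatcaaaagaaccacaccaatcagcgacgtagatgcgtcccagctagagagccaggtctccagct
Aen: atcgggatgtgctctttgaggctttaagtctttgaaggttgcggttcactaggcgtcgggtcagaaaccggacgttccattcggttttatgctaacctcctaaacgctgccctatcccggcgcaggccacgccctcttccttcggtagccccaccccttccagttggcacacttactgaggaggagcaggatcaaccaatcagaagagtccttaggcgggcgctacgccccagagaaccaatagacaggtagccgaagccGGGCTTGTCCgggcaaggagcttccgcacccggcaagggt
The printed Cdkn1a window lies at chr17:29090729-29091028 on the plus strand and covers 1 of the gene's listed starts. It holds a pair of half-sites, GGACTAGCTT starting 73 bases and GAACATGTCT 51 bases before that start. A second Cdkn1a window, chr17:29093519-29093818, covers another start further downstream and has 0 half-sites. Such a pair 0 to 13 bases apart was found in 24 windows (0.0731% of all), and among members in Cdkn1a alone. The Ppm1d window (chr11:85311004-85311303, plus strand) has GAGCTTGCTC at 132 bases before the start. The Ccng1 window (chr11:40755237-40755536, minus strand) has GGGCAAGCCT at 185 bases before it, and the Aen window (chr7:78895677-78895976, plus strand) has GGGCTTGTCC at position 10 after it. A second Aen window, chr7:78895808-78896107, overlaps the first and holds the same half-site, at position -121 from its own start.

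Among p53 and its regulators, Trp53 mRNA was called in no comparison. It stood at 2.42, 2.87 and 2.63 CPM in dasatinib 16x A, B and C, at 3.35, 2.59 and 2.65 CPM in dasatinib 1x A, B and C, at 3.38 CPM in DMSO 16x, 3.42 CPM in DMSO 1x, and 2.90 and 3.66 CPM in parental A and B. The dasatinib 16x values ended just below the lowest drug-free value, and the dasatinib 1x values overlapped them. Its log2 change was -0.34 ± 0.15 (SE, adjusted p = 0.144) in dasatinib 16x against drug-free libraries. RefSeq lists a pseudogene of Trp53 and one of Mdm4 without rows of their own in the table, so reads shared with a copy cannot be told apart.

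Mdm2, the ligase that marks p53 for destruction and is itself induced by it, had 95.1, 86.9 and 98.4 CPM in dasatinib 16x A, B and C. Its level was 99.0, 97.1 and 93.4 CPM in dasatinib 1x A, B and C. DMSO 16x had 74.9 CPM, DMSO 1x 83.1 CPM, and parental A and B 88.0 and 89.1 CPM. The dasatinib 1x libraries all lay above the drug-free ones, while dasatinib 16x B fell within their range. Against all drug-free libraries Mdm2 was not called, at 0.16 ± 0.06 for dasatinib 16x (adjusted p = 0.126) and 0.20 ± 0.06 for dasatinib 1x (adjusted p = 0.143). Mdm4, the partner of MDM2 that blocks p53 activity, stayed between 1.23 and 2.13 CPM in all libraries and was called in no comparison.

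Ppm1d, the WIP1 phosphatase that switches p53 and ATM signalling off, was lower at the late step. It had 31.7, 31.8 and 34.5 CPM in dasatinib 16x A, B and C, 40.1, 38.0 and 38.9 CPM in dasatinib 1x A, B and C, 38.5 CPM in DMSO 16x, 44.1 CPM in DMSO 1x, and 40.3 and 39.0 CPM in parental A and B. The 3 dasatinib 16x values lay below all 7 others. Ppm1d fell by 0.31 ± 0.06 on the log2 scale against drug-free libraries (1.24-fold lower, adjusted p = 0.00693), and its difference from dasatinib 1x, -0.26 ± 0.06, did not pass among 3 classes (adjusted p = 0.0669). In the fit of 5 groups it did (-0.26 ± 0.05, adjusted p = 0.00437), where 1 member was called higher and 5 lower between the dasatinib steps, among 1686 of 12993 genes called.

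Among members that halt the cell cycle, Cdkn1a had the largest called rise. It encodes p21, the inhibitor of cyclin-dependent kinases that carries out p53's arrest. It had 84.6, 92.9 and 108 CPM in dasatinib 16x A, B and C, 71.2, 71.9 and 67.3 CPM in dasatinib 1x A, B and C, 68.4 CPM in DMSO 16x, 53.8 CPM in DMSO 1x, and 45.1 and 43.1 CPM in parental A and B. All dasatinib 16x libraries were above all others, the parental pair was lowest, and DMSO 16x reached the level of dasatinib 1x. Cdkn1a averaged 95.2 ± 11.9 CPM in dasatinib 16x (SD, n = 3) and 52.6 ± 11.5 CPM in drug-free libraries (SD, n = 4), a 1.81-fold rise of 0.85 ± 0.15 on the log2 scale (adjusted p = 0.00629). Dasatinib 1x, at 70.1 ± 2.48 CPM (SD, n = 3), did not pass against drug-free libraries (0.41 ± 0.15, adjusted p = 0.188). Against the parental libraries alone, in the fit of 5 groups, Cdkn1a was called at both steps, by 1.11 ± 0.10 for dasatinib 16x (adjusted p = 0.000122) and 0.67 ± 0.10 for dasatinib 1x (adjusted p = 0.00668). The same gene also rose in DMSO 16x against parental libraries, by 0.63 ± 0.13 (adjusted p = 0.00557), where cells had met only solvent.

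Ccng1, cyclin G1, a p53-induced partner of protein phosphatase 2A, rose to 233, 270 and 307 CPM in dasatinib 16x A, B and C, and it had 277, 283 and 276 CPM in dasatinib 1x A, B and C. DMSO 16x had 165 CPM, DMSO 1x 194 CPM, and parental A and B 216 and 215 CPM. No dasatinib library overlapped the drug-free ones. The log2 change was 0.45 ± 0.11 for dasatinib 16x (adjusted p = 0.0216) and 0.50 ± 0.11 for dasatinib 1x, which just missed the threshold (adjusted p = 0.0512). The dasatinib 16x call was lost with parental libraries alone, under the block by letter, or without DMSO 1x, dasatinib 16x B or dasatinib 16x C, at adjusted p up to 0.109.

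Btg2, an antiproliferative factor that recruits the CCR4-NOT deadenylase, went the other way. It had 4.29, 5.37 and 2.77 CPM in dasatinib 16x A, B and C, 5.32, 6.16 and 4.84 CPM in dasatinib 1x A, B and C, 4.99 CPM in DMSO 16x, 11.1 CPM in DMSO 1x, and 11.7 and 12.4 CPM in parental A and B. Low values were thus found in 7 libraries, and DMSO 16x lay inside the dasatinib range. Btg2 fell by 1.28 ± 0.32 on the log2 scale in dasatinib 16x against drug-free libraries (2.42-fold lower, adjusted p = 0.0277). This call was lost when DMSO 1x, dasatinib 16x A or C, or either parental library was left out, at adjusted p up to 0.0982. Btg2 also fell in dasatinib 1x against DMSO 1x, by 1.02 ± 0.27 (adjusted p = 0.0354), and in DMSO 16x against parental libraries, by 1.27 ± 0.32 (adjusted p = 0.0138).

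Gtse1, a protein of G2 and S phase that restrains p53, had 146, 153 and 152 CPM in dasatinib 16x A, B and C, 169, 165 and 173 CPM in dasatinib 1x A, B and C, 138 CPM in DMSO 16x, 148 CPM in DMSO 1x, and 154 and 152 CPM in parental A and B. The 3 dasatinib 1x libraries were above all others. The change against drug-free libraries was 0.19 ± 0.04 for dasatinib 1x (adjusted p = 0.0556), and against DMSO 1x alone it passed at 0.19 ± 0.05 (adjusted p = 0.0151). Dasatinib 16x differed from dasatinib 1x by -0.17 ± 0.03 in the fit of 5 groups (adjusted p = 0.00447), and the difference was not called among 3 classes (adjusted p = 0.102). Plk3, a polo-like kinase of the stress response, had 14.7, 12.6 and 14.1 CPM in dasatinib 16x A, B and C, 12.2, 13.5 and 14.2 CPM in dasatinib 1x A, B and C, 10.8 CPM in DMSO 16x, 12.4 CPM in DMSO 1x, and 13.3 and 14.6 CPM in parental A and B, so DMSO 16x was lowest. Gadd45a, a stress factor that binds CDK1 and PCNA, ranged from 1.74 to 3.89 CPM and Plk2, another polo-like kinase, from 0.0239 to 0.383 CPM. Neither was called against the drug-free libraries.

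**Figure D3:**
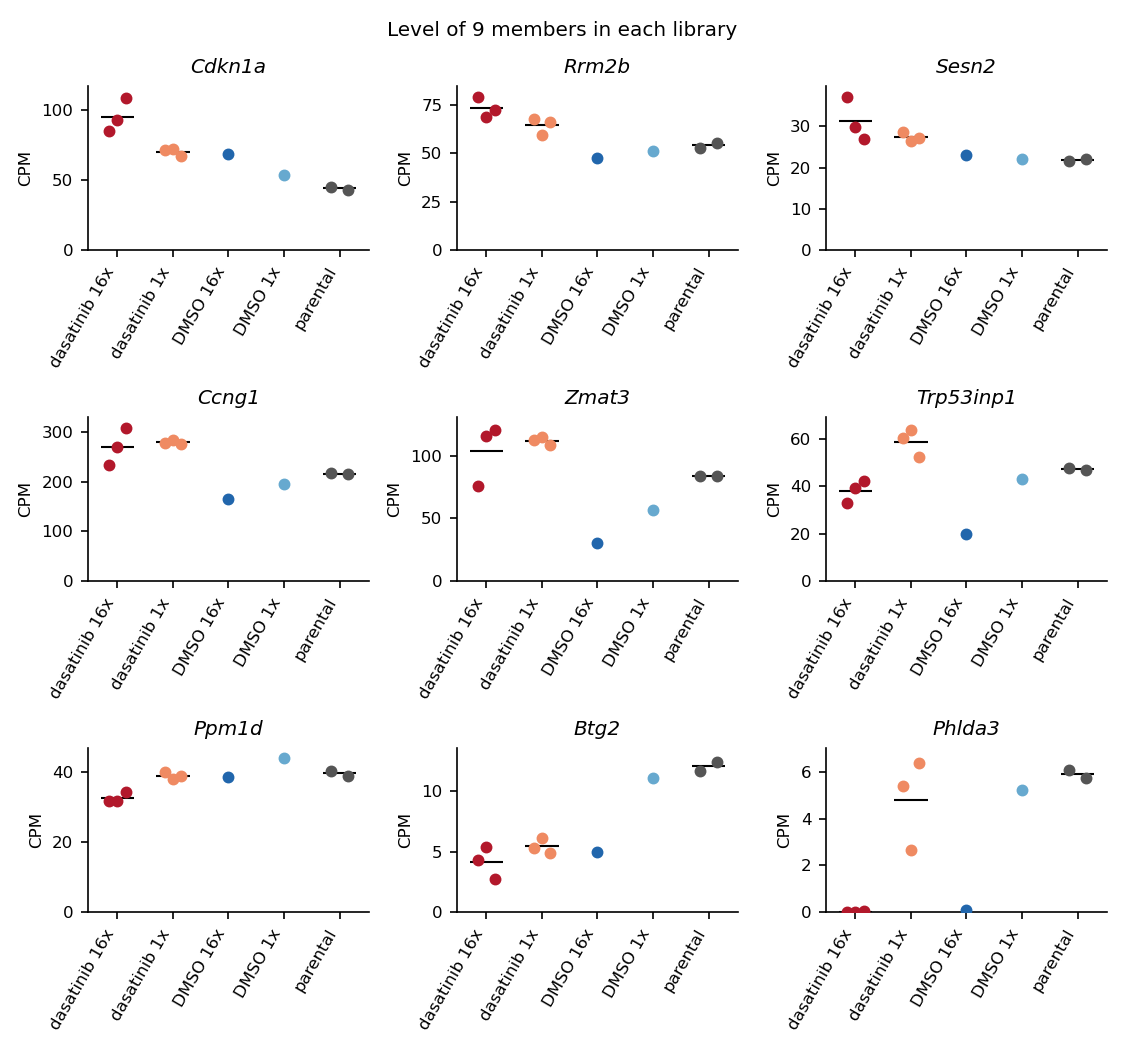
CPM (y axis, from 0) of 9 members in each library, by group (x axis). Points are libraries and black lines the means of groups with more than 1 library. Cdkn1a is highest in the 3 dasatinib 16x libraries, and Phlda3 is at or near 0 in dasatinib 16x and DMSO 16x and at 2.64 CPM or more elsewhere.

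Among members of the death pathways, Phlda3 had the largest change. It encodes a protein that is little more than a PH domain and competes with AKT for membrane lipids. It had 0, 0 and 2 counts in dasatinib 16x A, B and C, 171, 105 and 253 counts in dasatinib 1x A, B and C, 3 counts in DMSO 16x, 191 counts in DMSO 1x, and 179 and 241 counts in parental A and B. Those counts are up to 0.0477 CPM in dasatinib 16x, 5.41, 2.64 and 6.38 CPM in dasatinib 1x A, B and C, 0.0804 CPM in DMSO 16x, 5.23 CPM in DMSO 1x, and 6.10 and 5.76 CPM in parental A and B. The transcript was nearly absent from all 4 libraries of step 16x, with and without drug, and present in all 6 others.

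Over the group, Phlda3 was 271 times lower in dasatinib 16x than in drug-free libraries (95% counting interval 74.8 to 2246, from 2 against 614 counts; adjusted p = 0.0121). It was 305 times lower in dasatinib 16x than in dasatinib 1x (interval 84.1 to 2529, adjusted p = 0.0411). It was the only member called between these steps by edgeR's quasi-likelihood test among 3 classes, where 1 of 27 fell and 0 rose, beside 2.13% of all genes called (1.21% higher and 0.928% lower). At an unadjusted p under 0.05 there were 8 members, among 1942 of the 12282 genes, and DESeq2 called 3 members lower and 0 higher, among 805 genes. Without DMSO 16x there were 4 lower and 1 higher, among 978 genes called, beside 262 with all libraries. DMSO 16x was 73.4 times lower than the parental libraries (interval 24.9 to 357, 3 against 420 counts, adjusted p = 0.000933). Between dasatinib 16x and DMSO 16x no fold is given, since neither held more than 3 counts. The call against drug-free libraries was lost without dasatinib 16x A or C (adjusted p up to 0.0566). The call against dasatinib 1x was lost with no filter and without any one of the 9 libraries other than DMSO 16x, and was 0.154 at most.

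Csrp1 and Ipo9, neighbours of Phlda3 on chromosome 1 in RefSeq order that were looked at after its values were seen, were expressed in all 10 libraries. Csrp1, the next gene before it, had 48.3 to 49.5 CPM in dasatinib 16x, 58.3 to 64.6 CPM in dasatinib 1x, 59.6 CPM in DMSO 16x, 61.9 CPM in DMSO 1x, and 54.9 and 55.2 CPM in parental A and B. Ipo9 had 158 to 163 CPM in dasatinib 16x, 169 to 178 CPM in dasatinib 1x, 177 CPM in DMSO 16x, 173 CPM in DMSO 1x, and 180 and 177 CPM in parental A and B. Tnni1, the next gene after Phlda3, had at most 0.0316 CPM in any library. Against DMSO 16x, dasatinib 16x was lower in Csrp1 (-0.28 ± 0.06, adjusted p = 0.00382) and Ipo9 (-0.15 ± 0.04, adjusted p = 0.0163), and neither was called in DMSO 16x against parental libraries. Tmem9 and Tnnt2, also nearby, were higher in DMSO 16x than in parental libraries, by 1.27 ± 0.37 (adjusted p = 0.0309) and 2.55 ± 0.67 (adjusted p = 0.0177). Tmem9 was lower in dasatinib 16x than in DMSO 16x (-1.36 ± 0.34, adjusted p = 0.0131), and Timm17a, another gene nearby, was higher there (0.22 ± 0.08, adjusted p = 0.0453). No cause of the low Phlda3 counts was tested.

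Zmat3, a zinc finger RNA-binding protein induced by p53, had 76.0, 115 and 120 CPM in dasatinib 16x A, B and C, 112, 115 and 109 CPM in dasatinib 1x A, B and C, 30.6 CPM in DMSO 16x, 56.5 CPM in DMSO 1x, and 83.4 and 83.9 CPM in parental A and B. The 2 DMSO lines were lowest, and dasatinib 16x A lay below the parental pair. Neither step was called against drug-free libraries, at 0.71 ± 0.31 for dasatinib 16x (adjusted p = 0.15) and 0.82 ± 0.31 for dasatinib 1x (adjusted p = 0.199).

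Trp53inp1, a p53 cofactor that also acts in autophagy, had 33.0, 39.2 and 42.1 CPM in dasatinib 16x A, B and C, 60.3, 63.8 and 52.2 CPM in dasatinib 1x A, B and C, 19.97 CPM in DMSO 16x, 43.1 CPM in DMSO 1x, and 47.8 and 47.0 CPM in parental A and B. Within each arm the 16x libraries lay below the 1x ones. In the fit of 5 groups it differed by -0.63 ± 0.10 in dasatinib 16x against dasatinib 1x (adjusted p = 0.00538) and by -1.11 ± 0.18 in DMSO 16x against DMSO 1x (adjusted p = 0.00784). In the fit of 3 classes the dasatinib difference, -0.62 ± 0.28, was not called (adjusted p = 0.314). The difference between the 2 step changes was 0.49 ± 0.21 and was not called (adjusted p = 0.27).

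Aen, a nuclease of p53-dependent apoptosis, had 57.4, 56.8 and 60.2 CPM in dasatinib 16x A, B and C, 56.4, 60.01 and 60.4 CPM in dasatinib 1x A, B and C, 48.4 CPM in DMSO 16x, 49.7 CPM in DMSO 1x, and 56.7 and 54.7 CPM in parental A and B. It was lowest in the 2 DMSO lines. Apaf1, the scaffold of the apoptosome, had 96.9, 94.1 and 97.9 CPM in dasatinib 16x A, B and C, 104, 100 and 99.5 CPM in dasatinib 1x A, B and C, 117 CPM in DMSO 16x, 106 CPM in DMSO 1x, and 103 CPM in both parental libraries. Apaf1 was not called against drug-free libraries (-0.15 ± 0.05 for dasatinib 16x, adjusted p = 0.0578).

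Tnfrsf10b, the mouse TRAIL death receptor, had 1.16, 0.833 and 0.382 CPM in dasatinib 16x A, B and C, 0.570, 0.528 and 0.656 CPM in dasatinib 1x A, B and C, 2.25 CPM in DMSO 16x, 1.18 CPM in DMSO 1x, and 0.647 and 0.670 CPM in parental A and B. DMSO 16x was the highest library. Eda2r, the receptor for ectodysplasin A2, had 0.132 to 0.221 CPM in dasatinib 16x, 0.303 to 0.475 CPM in dasatinib 1x, 0.107 CPM in DMSO 16x, 0.164 CPM in DMSO 1x, and 0.136 and 0.167 CPM in parental A and B. Its dasatinib 1x libraries lay above all others at very low levels, and the change against drug-free libraries, 1.48 ± 0.32, just missed the threshold (adjusted p = 0.0528). Ei24, a protein of the endoplasmic reticulum, ranged from 72.7 to 91.1 CPM and was not called.

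Among repair genes, Rrm2b was the member called higher. It encodes the p53-induced small subunit of ribonucleotide reductase, which supplies nucleotides for repair. It had 79.2, 68.7 and 72.4 CPM in dasatinib 16x A, B and C, 67.9, 59.4 and 66.4 CPM in dasatinib 1x A, B and C, 47.6 CPM in DMSO 16x, 51.4 CPM in DMSO 1x, and 52.95 and 55.3 CPM in parental A and B. Every dasatinib library lay above every drug-free one. Rrm2b averaged 73.4 ± 5.35 CPM in dasatinib 16x (SD, n = 3) and 51.8 ± 3.23 CPM in drug-free libraries (SD, n = 4), a 1.42-fold rise of 0.50 ± 0.07 (adjusted p = 0.00196). For dasatinib 1x the change of 0.32 ± 0.07 just missed the threshold (adjusted p = 0.0518). Xpc and Ddb2 recognise damage in nucleotide excision repair. Xpc ranged from 34.8 to 41.2 CPM, Ddb2 from 3.48 to 5.83 CPM and Ercc5, the repair endonuclease, from 17.0 to 22.02 CPM, and none was called against all drug-free libraries, against the DMSO line of the step or between dasatinib steps among 3 classes. In the fit of 5 groups Xpc was lower in dasatinib 16x than in dasatinib 1x (-0.16 ± 0.04, adjusted p = 0.0367). There it was also lower in dasatinib 16x than in parental libraries alone (-0.20 ± 0.05, adjusted p = 0.0112).

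Among metabolic and redox members, Sesn2, a sestrin that restrains mTORC1, had 37.1, 29.8 and 26.8 CPM in dasatinib 16x A, B and C, 28.8, 26.4 and 27.1 CPM in dasatinib 1x A, B and C, 23.1 CPM in DMSO 16x, 22.2 CPM in DMSO 1x, and 21.6 and 22.002 CPM in parental A and B. All 6 dasatinib libraries were above the drug-free ones. Sesn2 rose 1.41-fold in dasatinib 16x (0.49 ± 0.10, adjusted p = 0.00919), and the change in dasatinib 1x was 0.30 ± 0.10 (adjusted p = 0.142). Its relative Sesn1 stayed between 84.5 and 102 CPM and was not called. Fdxr, the mitochondrial ferredoxin reductase, ranged from 19.8 to 27.0 CPM. Dcxr, a sugar and dicarbonyl reductase, had 0.374, 0.907 and 0.263 CPM in dasatinib 16x A, B and C, 1.27, 1.51 and 0.706 CPM in dasatinib 1x A, B and C, 0.214 CPM in DMSO 16x, 1.31 CPM in DMSO 1x, and 1.53 and 1.58 CPM in parental A and B. Neither gene was called in dasatinib 16x or dasatinib 1x against drug-free libraries. Against the parental libraries alone, in the fit of 5 groups, both were called in dasatinib 16x. Dcxr was lower (-1.60 ± 0.46, adjusted p = 0.0279) and Fdxr higher (0.24 ± 0.07, adjusted p = 0.0234). The row Lrdd ranged from 35.1 to 51.8 CPM and was not called against drug-free libraries (-0.21 for dasatinib 16x, adjusted p = 0.141). It was called lower in dasatinib 16x against parental libraries alone (-0.33 ± 0.08, adjusted p = 0.0105).

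Setting each dasatinib step against the DMSO line of the same step compares lines carried equally far, with 1 DMSO library each, whose spread is taken from the replicated groups. Against DMSO 16x, 8 of 28 tested members were called higher and 3 lower in dasatinib 16x, beside 34.8% of all genes called (17.9% higher and 16.9% lower). The median log2 difference of the 28 was 0.18, against 0.00 over all genes. The members called higher included Zmat3 (1.76 ± 0.30, 3.39-fold, adjusted p = 0.00695) and Trp53inp1 (0.93 ± 0.16, adjusted p = 0.00216). Ccng1 was 0.71 ± 0.14 higher (adjusted p = 0.0089), Rrm2b 0.63 ± 0.09 higher (adjusted p = 0.000265) and Cdkn1a 0.48 ± 0.12 higher (adjusted p = 0.0151). Mdm2 (0.32 ± 0.07, adjusted p = 0.00193), Aen (0.27 ± 0.06, adjusted p = 0.00501) and Plk3 (0.36 ± 0.13, adjusted p = 0.043) completed the group. Those lower were Tnfrsf10b (-1.49 ± 0.43, adjusted p = 0.0169), Apaf1 (-0.28 ± 0.04, adjusted p = 0.000331) and Ppm1d (-0.24 ± 0.07, adjusted p = 0.0171). The Tnfrsf10b and Ppm1d calls were lost under DESeq2, and the Plk3 call under DESeq2 and without any of 6 single libraries. Without dasatinib 16x A 5 members were called lower, among 4697 genes called in either direction, beside 4526 with all libraries.

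Against DMSO 1x, 4 of 28 members were called higher and 1 lower in dasatinib 1x, beside 13.6% of all genes called (6.65% higher and 6.99% lower). Rrm2b (0.33 ± 0.09, adjusted p = 0.0331), Aen (0.25 ± 0.06, adjusted p = 0.0184), Mdm2 (0.22 ± 0.06, adjusted p = 0.0431) and Gtse1 were higher, and Btg2 was lower. Zmat3 (0.99 ± 0.27, adjusted p = 0.0826), Ccng1 (0.52 ± 0.14, adjusted p = 0.0586) and Cdkn1a (0.38 ± 0.12, adjusted p = 0.0809) were above DMSO 1x in all 3 libraries without passing. Rrm2b, Mdm2 and Aen were thus called at both steps against the DMSO line of the step. Their step 1x calls held in 8, 6 and 11 of 12 other settings, in that order. Against parental libraries alone, in the fit of 5 groups, Mdm2 and Aen were called at neither step. Mdm2 differed by 0.08 ± 0.05 in dasatinib 16x (adjusted p = 0.281) and 0.12 ± 0.05 in dasatinib 1x (adjusted p = 0.193). Aen differed by 0.06 ± 0.05 and 0.08 ± 0.05 (adjusted p = 0.383 at both). Rrm2b was called there in dasatinib 16x only. At step 1x the number called higher was 2 without dasatinib 1x A or either parental library, 9 without dasatinib 16x A and 1 when dasatinib 1x C was left out, and the Btg2 call was lost without any of these 5 libraries.

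The DMSO 16x line itself differed from the parental line. Of 28 tested members, 4 were called higher and 10 lower in DMSO 16x, beside 30.1% of all genes called (14.6% higher and 15.5% lower). The median log2 difference of the members was -0.20, against -0.01 over all genes. Phlda3, Plk2, Trp53inp1 (-1.25 ± 0.17, adjusted p = 0.000689), Zmat3 (-1.45 ± 0.31, adjusted p = 0.0185), Btg2 and Dcxr (-2.84 ± 0.78, adjusted p = 0.0175) were lower by more than 1 on the log2 scale. Plk2, with 1 count in DMSO 16x against 22 in the parental pair, was 11.5 times lower (95% counting interval 1.86 to 476) and lay just inside the threshold. Mdm2 (-0.24 ± 0.07, adjusted p = 0.0176), Xpc (-0.23 ± 0.07), Aen (-0.20 ± 0.07) and Gtse1 (-0.15 ± 0.05) were lower by less. Those higher were Cdkn1a, Tnfrsf10b (1.77 ± 0.48, adjusted p = 0.0144), Fdxr (0.38 ± 0.09, adjusted p = 0.00618) and Apaf1 (0.19 ± 0.05, adjusted p = 0.0108). The calls in Cdkn1a, Phlda3 and Trp53inp1 passed under every other setting. Without either parental library fewer members were called, and fewer genes over all.

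**Figure D4:**
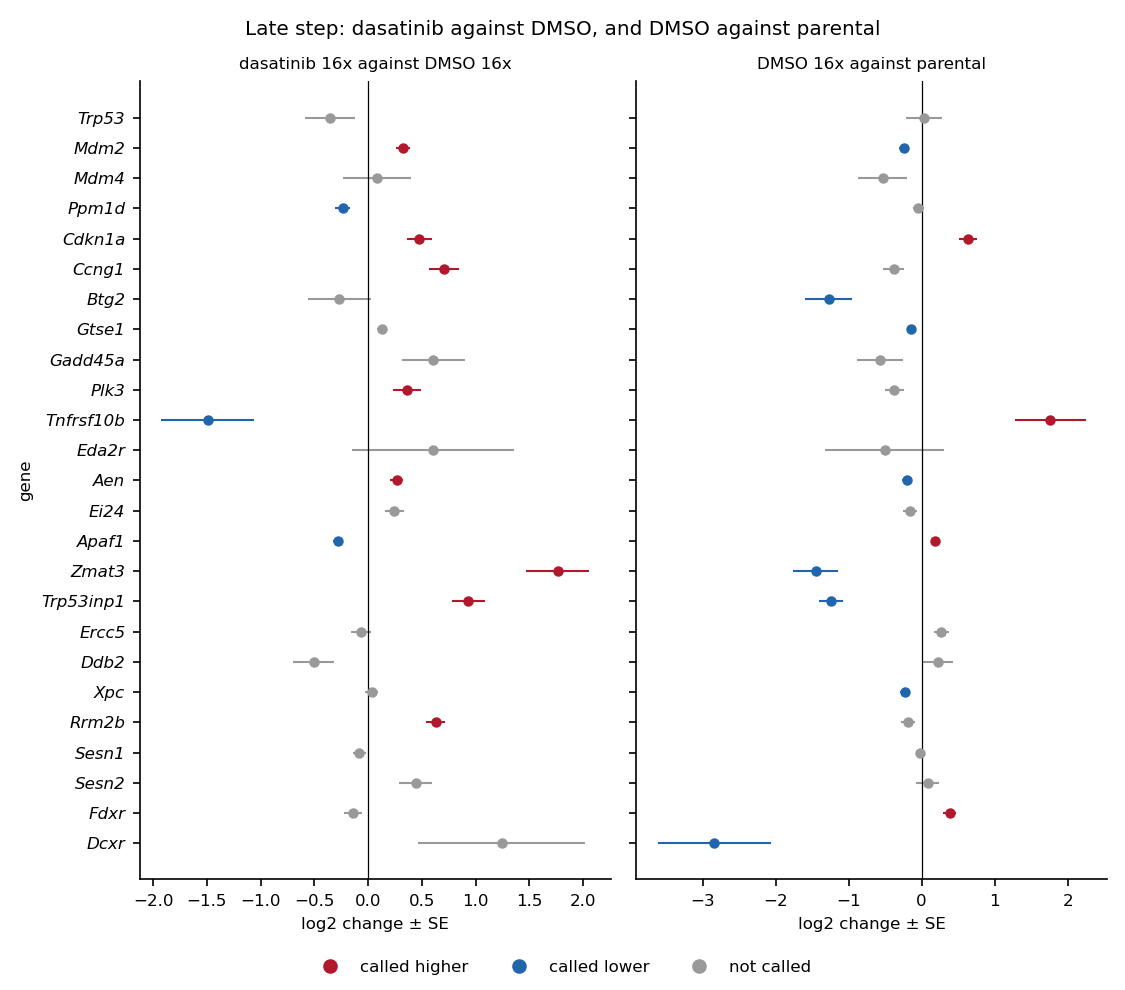
Log2 change (x axis) with its standard error for 25 members (y axis, Phlda3, Plk2 and Fas left out for low counts) in dasatinib 16x against DMSO 16x (left) and DMSO 16x against parental libraries (right). The comparisons share the DMSO 16x library with opposite sign, which by itself favours opposite signs, as in Zmat3 and Trp53inp1, so they are shown side by side and not as 2 findings. Cdkn1a is called higher in both.

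DMSO 1x and the parental line did not differ past the threshold in these genes, which does not show that they are alike. edgeR's quasi-likelihood test called 0 of 28 members, beside 6.06% of all genes (3.29% higher and 2.77% lower), with 2 members among 2788 of 12993 genes at an unadjusted p under 0.05, and 0 members among 748 genes called by DESeq2. Leaving out dasatinib 16x A gave 1 lower member, and leaving out its library C gave 1 higher. Over all genes these 2 settings called 1393 and 926, beside 787 with all libraries. The change from step 1x to step 16x was also compared between the dasatinib and DMSO arms. It was called in 0 of 28 members by edgeR's quasi-likelihood test, beside 6.36% of all genes (5.06% higher and 1.29% lower), with 3 members among 2369 genes at an unadjusted p under 0.05, and 0 members among 839 genes called by DESeq2. Without dasatinib 16x A 2 were called higher and 1 lower, without dasatinib 16x B 1 lower, and without dasatinib 16x C 1 higher. The totals over all genes in that order were 1166, 1232 and 866, beside 826 with all libraries. For Cdkn1a the step change in the fit of 5 groups was 0.44 ± 0.08 in the dasatinib arm (adjusted p = 0.0104) and 0.35 ± 0.15 in the DMSO arm, a difference of 0.09 ± 0.17 (95% interval from the SE, -0.23 to 0.42, adjusted p = 0.851). For Phlda3 both step changes were called, at adjusted p = 0.000169 in the dasatinib arm and 0.0052 in the DMSO arm.

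Of the pathway around the members, 18 kinases and sensors that report damage to p53 were tested. At dasatinib 16x against drug-free libraries 7 of them fell and the other 11 did not pass by edgeR's quasi-likelihood test, beside the 7.79% of all genes called higher and 8.33% called lower, and the median log2 change was -0.11. H2afx, the histone variant phosphorylated at DNA breaks, had 182, 176 and 182 CPM in dasatinib 16x A, B and C, 231 to 241 CPM in dasatinib 1x, 258 CPM in DMSO 16x, 267 CPM in DMSO 1x, and 253 and 236 CPM in parental A and B. It fell by 0.50 ± 0.04 (adjusted p = 0.000271), Chek1, the checkpoint kinase of stalled replication, by 0.21 ± 0.03 (adjusted p = 0.00331) and Clspn, its adaptor, by 0.18 ± 0.03 (adjusted p = 0.00486).

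Of 23 tested proteins that modify p53 or its stability, 1 rose and 5 fell at dasatinib 16x against drug-free libraries, beside the same 7.79% of all genes called higher and 8.33% called lower. Sirt1, which deacetylates p53, fell by 0.46 ± 0.06 (adjusted p = 0.0023), Rfwd3, a ubiquitin ligase, by 0.24 ± 0.04 (adjusted p = 0.00261) and Ppp1r13b, the p53 cofactor ASPP1, by 1.20 ± 0.20 (adjusted p = 0.00488). Cdkn2a, the locus of ARF, was expressed at 32.1, 26.9 and 26.1 CPM in dasatinib 16x A, B and C, 21.2 to 23.1 CPM in dasatinib 1x, 22.4 CPM in DMSO 16x, 26.9 CPM in DMSO 1x, and 23.8 CPM in both parental libraries. It was not called against drug-free libraries (0.23 ± 0.09, adjusted p = 0.101) and was called against DMSO 16x alone (0.34 ± 0.11, adjusted p = 0.0277). Gene counts do not separate the transcripts of ARF and p16 at this locus.

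Among 32 other tested genes that p53 is known to induce, 2 rose and 4 fell at dasatinib 16x against drug-free libraries, again beside 7.79% and 8.33% of all genes. Their median log2 change was 0.05, against -0.00 over all genes tested. Trp53inp2, a relative of Trp53inp1, rose by 0.78 ± 0.14 (adjusted p = 0.00639), while Pcna, the replication clamp, fell by 0.19 ± 0.03 (adjusted p = 0.00401) and Klf4, a transcription factor, by 1.80 ± 0.30 (adjusted p = 0.00456). At dasatinib 1x the calls in these 3 lists were Aldh4a1, an enzyme of proline breakdown (-0.93 ± 0.17, adjusted p = 0.0286), and Ppp1r13b (-1.12 ± 0.20, adjusted p = 0.029).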

How the data were processed

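The authors deposited a table of raw counts, 1 row per gene, for the 10 RNA sequencing libraries. The submitters' processing notes name CASAVA 1.7.0, Trimmomatic 0.33, TopHat2 2.0.12, BWA 0.7.10, SAMtools and HTSeq 0.6.1, and the build mm9. The sources used here do not state whether counting used strand. Reads of a gene and of its overlapping or antisense partner can therefore not be separated.

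The edgeR filter on low counts (filterByExpr, minimum count 10) chose the genes tested, libraries were scaled by TMM, and tests used edgeR 4.0.16's robust quasi-likelihood test in R 4.3.3, with Benjamini-Hochberg adjustment over all genes tested at 0.05. A fit of 3 classes (12282 genes, biological coefficient of variation 15.3%, 7 residual degrees of freedom) served the comparisons with drug-free libraries and between dasatinib steps. A fit of 5 groups (12993 genes, 7.29%, 5 degrees of freedom) served comparisons with a single DMSO line and between the steps of each arm. Standard errors are the log2 change over the square root of F. Ratios with fewer than 4 counts in a group have exact conditional 95% intervals, which cover counting error only.

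The members and lists were chosen with earlier results of these data known. Per-library values are given for members called in at least 1 comparison of dasatinib with its controls or between its steps, and for Trp53, Mdm2 and Cdkn1a. From the 3 other lists, called genes with the 3 smallest p-values against drug-free libraries are named, and Cdkn2a. Other settings were RLE scaling, no filter, DESeq2 1.42.0, other drug-free references, a block by replicate letter and leaving out each library. The procedure was tested on simulated data.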

Additional observations from a re-analysis of the deposited data

Results flagged for a closer look

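Dixon's gap test was run within the 4 drug-free libraries on the 27 members tested among 3 classes. DMSO 16x stood far from the other 3 in 2 of these members. The test nominally flags about 1 in 20 groups by chance, so 2 flags are near that rate, and their number alone says little. The rate assumes independent values, which is not known for the parental pair. Both genes were also called in DMSO 16x against parental libraries, a comparison that uses the same libraries. Phlda3 had 0.0804 CPM in DMSO 16x, against 5.23 to 6.10 CPM in the other 3. Trp53inp1 had 19.97 CPM in DMSO 16x, against 43.1 to 47.8 CPM in the other 3. No cause was tested.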

How the results depend on the processing

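Over 56 gene results, 729 values were recomputed, and none changed sign where it or the main value was called. Some uncalled results did change sign, such as Trp53 in DMSO 16x against parental libraries (-0.117 to 0.225 across settings). Of the 729 values, 636 kept their side of the threshold, 80 lost the call and 13 gained one. Of 38 called results, 15 passed under every setting, among them Cdkn1a, Rrm2b, Sesn2 and Ppm1d in dasatinib 16x against drug-free libraries.

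Other members that were not called changed sign when parental libraries alone were the reference. In dasatinib 16x these were Tnfrsf10b (0.27 in place of -0.58), Plk3 (-0.01 in place of 0.11) and Gtse1 (-0.03 in place of 0.02), none called either way.

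Counts of called members moved as follows, and the cause was not tested. Dasatinib 16x against drug-free libraries called 4 higher and 3 lower members. The mean of the 3 drug-free groups in the fit of 5 groups called 7 higher and 6 lower, and DESeq2, parental libraries alone and the replicate block each called 5 lower. Dasatinib 1x against drug-free libraries, with 0 called, gave 10 higher and 3 lower with the mean of the 3 groups, 2 higher and 1 lower with parental libraries alone, 1 higher and 1 lower under the replicate block, 3 higher under DESeq2 and 1 higher with no filter. Dasatinib 16x against dasatinib 1x, with 1 lower, gave 1 higher and 5 lower in the fit of 5 groups, 2 higher and 5 lower under the replicate block, 3 lower under DESeq2 and 0 with no filter. DESeq2 called 1 lower member against DMSO 16x in place of 3, 7 higher against DMSO 1x in place of 4, and 6 lower in DMSO 16x against parental libraries in place of 10. Over all genes it called 3740, 1421 and 3233 in these comparisons, in place of 4526, 1772 and 3912. With no filter, 0 were lower against DMSO 1x in place of 1.

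Leaving out single libraries gave 3 to 5 higher and 1 to 6 lower members for dasatinib 16x against drug-free libraries, the 1 without dasatinib 16x C and the 6 without DMSO 16x. It gave 0 to 4 higher and 0 to 1 lower for dasatinib 1x, and 0 to 1 higher and 0 to 4 lower between the dasatinib steps, each highest without DMSO 16x. The ranges were 7 to 10 and 3 to 5 against DMSO 16x, 1 to 9 and 0 to 1 against DMSO 1x, 1 to 5 and 2 to 13 for DMSO 16x against parental, 0 to 1 and 0 to 1 for DMSO 1x against parental, and 0 to 2 and 0 to 1 for the difference between step changes. A lone library is then assumed to vary like the other groups. Totals over all genes moved as well. Against DMSO 1x they rose without dasatinib 16x A and fell without a parental library or dasatinib 1x C, as the member counts did. DMSO 16x against parental libraries likewise called fewer genes over all without either parental library.

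Over all genes, dasatinib 16x against drug-free libraries called 1980 genes (DESeq2 2669, mean of 3 groups 4665, parental alone 3282), dasatinib 1x 241 (DESeq2 853, mean of 3 groups 3580, parental alone 733, replicate block 536), and 16x against 1x 262 (DESeq2 805, 5 groups 1686, replicate block 1124). Deviations of dasatinib libraries with the same letter correlated at 0.0647, 0.0273 and 0.0517, so the letters are not taken as pairs, although each dasatinib 16x library correlated best with its own letter in dasatinib 1x. For members under about 1 CPM the depth limits what can be called.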
